A study of Homo sapiens with 4 samples.

Results

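A set of 10 genes of bone morphogenetic protein (BMP) signalling was examined in SH-SY5Y cells after silencing of TSPAN8: the secreted antagonists GREM1, NOG and FST, the ligands BMP2, BMP4 and BMP7, and the transcriptional targets ID1, ID2, ID3 and ID4. All probe sets that the platform annotation assigns to 1 of these genes alone were taken, which gave 22 probe sets for 10 of 10 genes, among 54613 probe sets and 19775 genes in all. A further probe set lists ID2 beside a second gene and was not used. The genes were selected on their control levels and their knockdown minus control values in these arrays, GREM1 having one of the largest increases, so those values are given as a description and no test is drawn from them.

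SH-SY5Y is a cloned subline of a human neuroblastoma culture, a tumour of the sympathetic lineage. The groups were TSPAN8 knockdown (2 samples) and transfection control (2 samples). Both were cultured in serum-containing medium and kept for 72 h under a self-delivering small interfering RNA system before total RNA was hybridised, 1 array per sample. The small interfering RNA sequence and the content of the control treatment are not given in the sources used here, and the labels do not say whether replicates were separate cultures, so p-values measure a spread that may be technical. TSPAN8, a membrane protein of the tetraspanin family and the targeted gene, had log2 values of 6.25 and 6.35 on the knockdown arrays, against 7.52 and 7.62 on the control arrays, and fell by 1.27 on the log2 scale (SE 0.062; limma, adjusted p = 0.0026). It was the 1 probe set of 54613 past an adjusted p of 0.05, or 0.00183%. Of the noradrenergic markers expected of the line, DBH was bright (11.66 and 12.02 on the knockdown arrays, 12.19 and 12.18 on the control arrays). TH, named after its values were seen, averaged 6.08 ± 0.061 in the knockdown samples, against 5.96 ± 0.053 in the control samples (SD, n = 2 each), within the signal of genes restricted to other tissues.

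BMPs are secreted ligands of the transforming growth factor beta family that bind paired serine/threonine kinase receptors. The receptors phosphorylate SMAD1, SMAD5 and SMAD9, which enter the nucleus with SMAD4 and switch on target genes, the ID genes foremost among them. Gremlin, noggin and follistatin bind ligands outside the cell and keep them from their receptors. ID proteins have a helix-loop-helix without a DNA-binding region and hold E proteins and their neurogenic partners away from DNA. In the embryo, BMPs from the dorsal aorta induce the sympathetic lineage in neural crest cells.

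The promoters of GREM1 and of the 4 ID genes are shown because these are the genes that stood highest on the first knockdown array. Each is the window from 250 bases before to 50 after the start (RefSeq, GRCh38.p14, written 5′ to 3′ on the gene's strand). They lie at chr15:32717754-32718053 (plus strand, the more upstream of 2 listed GREM1 starts), chr20:31605039-31605338 (ID1, plus), chr2:8681806-8682105 (ID2, plus), chr1:23559452-23559751 (ID3, minus) and chr6:19837120-19837419 (ID4, plus). Capitals mark 3 motifs, each searched on both strands: the GC-rich SMAD motif is GGCGCC, the SMAD box is GTCT on either strand, and the letters CANNTG mark the E-box that basic helix-loop-helix factors bind. No marked letters of different motifs overlap.
GREM1: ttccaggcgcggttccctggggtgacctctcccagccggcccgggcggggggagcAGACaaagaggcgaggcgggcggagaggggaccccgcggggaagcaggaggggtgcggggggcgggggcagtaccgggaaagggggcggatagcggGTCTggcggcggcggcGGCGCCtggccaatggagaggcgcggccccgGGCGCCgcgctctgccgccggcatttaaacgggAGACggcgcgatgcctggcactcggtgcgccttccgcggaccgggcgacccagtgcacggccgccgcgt
ID1: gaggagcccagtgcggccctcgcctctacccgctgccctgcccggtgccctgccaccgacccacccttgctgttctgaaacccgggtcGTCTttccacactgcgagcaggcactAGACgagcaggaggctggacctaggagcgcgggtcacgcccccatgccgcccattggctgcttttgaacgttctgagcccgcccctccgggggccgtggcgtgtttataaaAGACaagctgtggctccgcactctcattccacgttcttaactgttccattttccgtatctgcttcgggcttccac
ID2: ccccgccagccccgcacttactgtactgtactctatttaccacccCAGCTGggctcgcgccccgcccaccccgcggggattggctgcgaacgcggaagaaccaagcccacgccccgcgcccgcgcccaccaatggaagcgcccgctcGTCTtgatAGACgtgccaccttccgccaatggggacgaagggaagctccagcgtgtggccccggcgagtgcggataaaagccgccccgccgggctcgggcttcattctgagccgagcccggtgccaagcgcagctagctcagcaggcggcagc
ID3: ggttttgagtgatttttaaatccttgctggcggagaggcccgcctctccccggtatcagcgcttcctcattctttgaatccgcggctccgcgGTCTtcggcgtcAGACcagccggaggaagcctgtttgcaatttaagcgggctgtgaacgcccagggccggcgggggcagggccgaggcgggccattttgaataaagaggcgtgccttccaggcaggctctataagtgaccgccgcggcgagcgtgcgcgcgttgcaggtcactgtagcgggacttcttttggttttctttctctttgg
ID4: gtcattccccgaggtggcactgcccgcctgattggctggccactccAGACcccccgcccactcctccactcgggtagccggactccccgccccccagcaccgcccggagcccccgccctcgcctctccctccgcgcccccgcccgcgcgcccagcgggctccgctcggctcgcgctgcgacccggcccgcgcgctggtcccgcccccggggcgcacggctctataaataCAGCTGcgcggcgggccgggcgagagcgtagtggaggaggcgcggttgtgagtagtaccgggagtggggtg
The GREM1 window held the GC-rich motif 2 times and the SMAD box 3 times, with no E-box. The ID1 window held the SMAD box 3 times, ID2 had 2 boxes and 1 E-box, ID3 had 2 boxes, and ID4 had 1 box and 1 E-box. Of the 35116 listed promoters of 300 bases, 19.2% held the GC-rich motif, 84% the SMAD box and 68.7% an E-box. The matches are letters in a window and not binding sites. Of the 10 genes, 7 have an entry in this promoter table.

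Over the 22 probe sets, 16 had a positive difference, where 50% of all probe sets did, and the median difference was 0.17 on the log2 scale, beside 0 over all probe sets. The genes were chosen with this contrast known, so nothing is read from these counts. Both knockdown arrays lay above both control arrays at 9 probe sets (17.7% of all probe sets) and below them at 3 (19.8%). The first knockdown array was the highest of the 4 at 13 of the 22, beside 26.6% of all probe sets. Several of the 22 belong to the same gene and read the same RNA samples. Nothing is read from these later counts either.

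**Figure D1:**
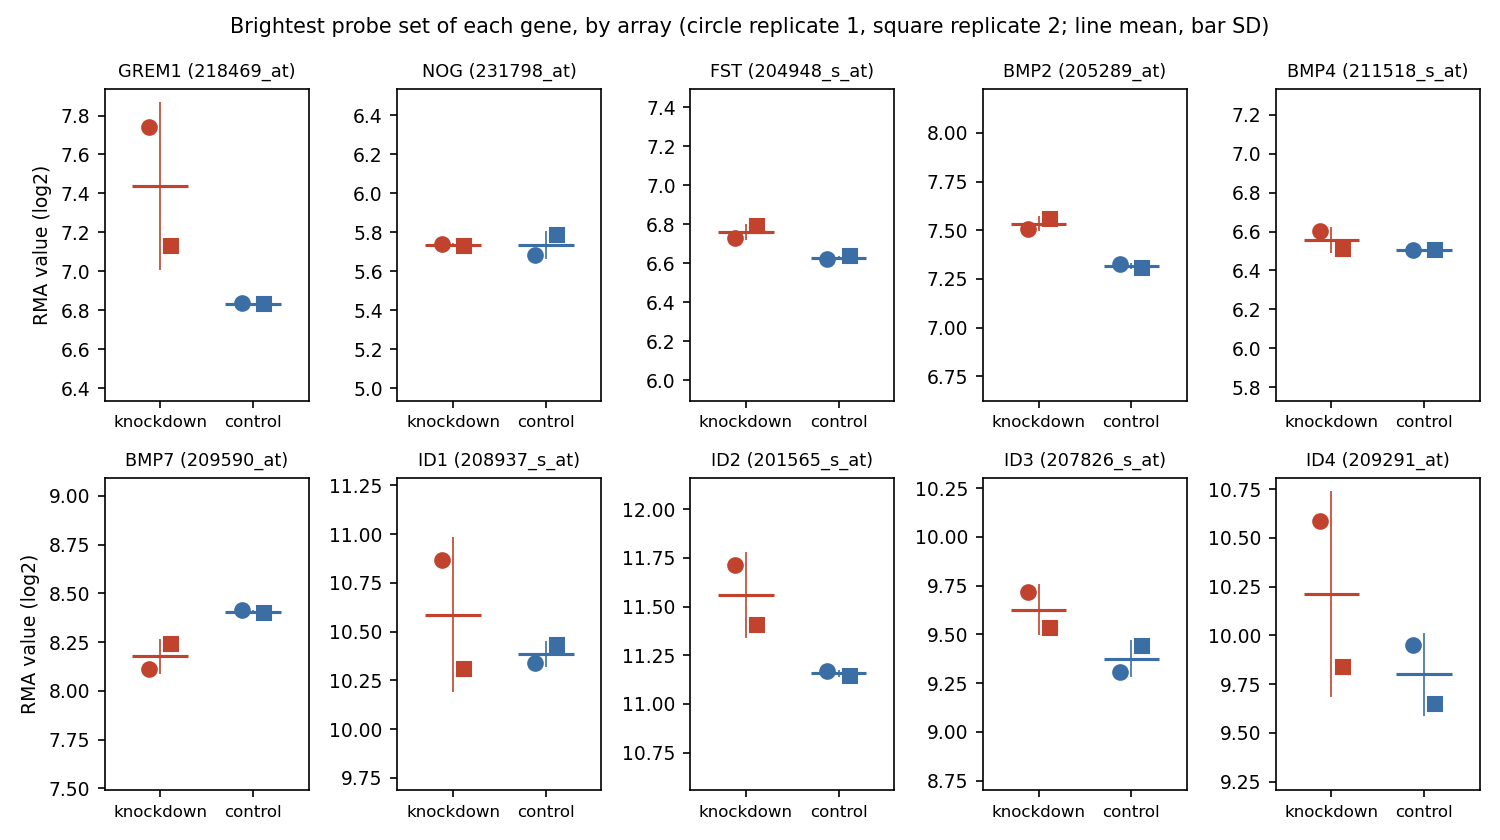
RMA values (log2) of the brightest probe set of each gene on the knockdown (red) and control (blue) arrays, circles for replicate 1 and squares for replicate 2, with means as lines and SD as bars (n = 2 each); all panels span the same number of log2 units. GREM1, ID1, ID2 and ID4 show a high first knockdown array, and BMP7 is the gene with both knockdown arrays clearly below control.

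GREM1 encodes gremlin, a secreted cystine-knot protein that binds BMP2, BMP4 and BMP7. Its brighter probe set (218469_at) had log2 values of 7.74 and 7.13 on the knockdown arrays, against 6.84 and 6.83 on the control arrays. The groups did not overlap, but the knockdown arrays differed from each other by 0.61 while the controls differed by 0.0038. Means were 7.44 ± 0.43 in knockdown and 6.83 ± 0.0027 in control samples (SD, n = 2 each), a difference of 0.60 ± 0.16 (SE) or 1.52-fold. The second probe set (218468_s_at) gave 7.21 and 6.78 on the knockdown arrays, against 6.58 and 6.47 on the control arrays, a difference of 0.47 ± 0.12 (SE). Both probe sets thus put the samples in the same order at the top, the first knockdown array, then the second, then the controls. Without knockdown replicate 1 the GREM1 difference was 0.30, and without knockdown replicate 2 it was 0.91. A gap between the knockdown arrays as large as 0.61 was found at 32 of all probe sets (0.0586%), where the median gap was 0.064.

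At 218469_at the GREM1 values in control cells lay above the medians of the 4 arrays, which ran from 6.58 to 6.61. At 218468_s_at they were 6.58 and 6.47, not above that range. As a guide to signal without expression, 62 probe sets of 32 genes restricted to other tissues, such as globin, keratin and muscle genes, had a median of 6.18 and a 95th percentile of 6.87. GREM1 in control cells was just under that percentile at 218469_at and further below it at 218468_s_at. Probe sets differ in affinity, so this places the signal and not the amount of RNA, and summarised log2 values understate changes of dim probe sets. Of the 22 probe sets, 15 had a mean over all 4 arrays above 6.87, but 218469_at of GREM1 only through its knockdown arrays. The 7 others were the second GREM1 probe set, NOG, the 3 of FST, BMP4 and 1 of the 5 of ID4.

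The other antagonists did not show the GREM1 pattern. Their signal was in the range of the tissue-restricted genes, which limits what a difference can show. NOG, which encodes noggin, had 5.74 and 5.73 in the knockdown samples, against 5.68 and 5.79 in the control samples at its 1 probe set. These values interleaved, with a difference of 0.00058 ± 0.057 (SE). FST encodes follistatin, which binds activins more tightly than BMPs. Its brightest probe set (204948_s_at) gave 6.73 and 6.79 on the knockdown arrays, against 6.62 and 6.64 on the control arrays, a difference of 0.13 ± 0.053 (SE). A second (207345_at) stood the other way, at 5.90 and 5.84 in knockdown against 6.01 and 5.95 in control samples, and the third (226847_at) overlapped, with a difference of -0.040. The FST probe sets therefore disagreed in sign, and their mean differed by -0.0067.

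Among the ligands, BMP2 was higher and BMP7 lower on both knockdown arrays. BMP2, a ligand that gremlin binds, gave 7.51 and 7.56 in the knockdown samples, against 7.33 and 7.31 in the control samples at 205289_at. Here the arrays of each group lay within 0.053 of each other, and the difference was 0.22 ± 0.052 (SE). Its second probe set (205290_s_at) overlapped, with 7.17 and 7.29 on the knockdown arrays against 7.19 and 7.06 on the control arrays. BMP7, a ligand that acts in kidney and eye development, gave 8.11 and 8.24 on the knockdown arrays, against 8.41 and 8.40 on the control arrays (209590_at). The difference was -0.23 ± 0.060 (SE), or 0.854-fold. Its other 3 probe sets differed by -0.10, -0.070 and 0.019, so the size seen at the brightest was not matched by the rest. BMP4, the ligand for which dorsal aorta signalling is best known, had 6.60 and 6.51 in the knockdown samples, against 6.50 and 6.51 in the control samples. Its second knockdown array lay between its first and the controls, nearer to them than the median gap of 0.058 between control arrays, and the difference was 0.053 ± 0.056 (SE).

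**Figure D2:**
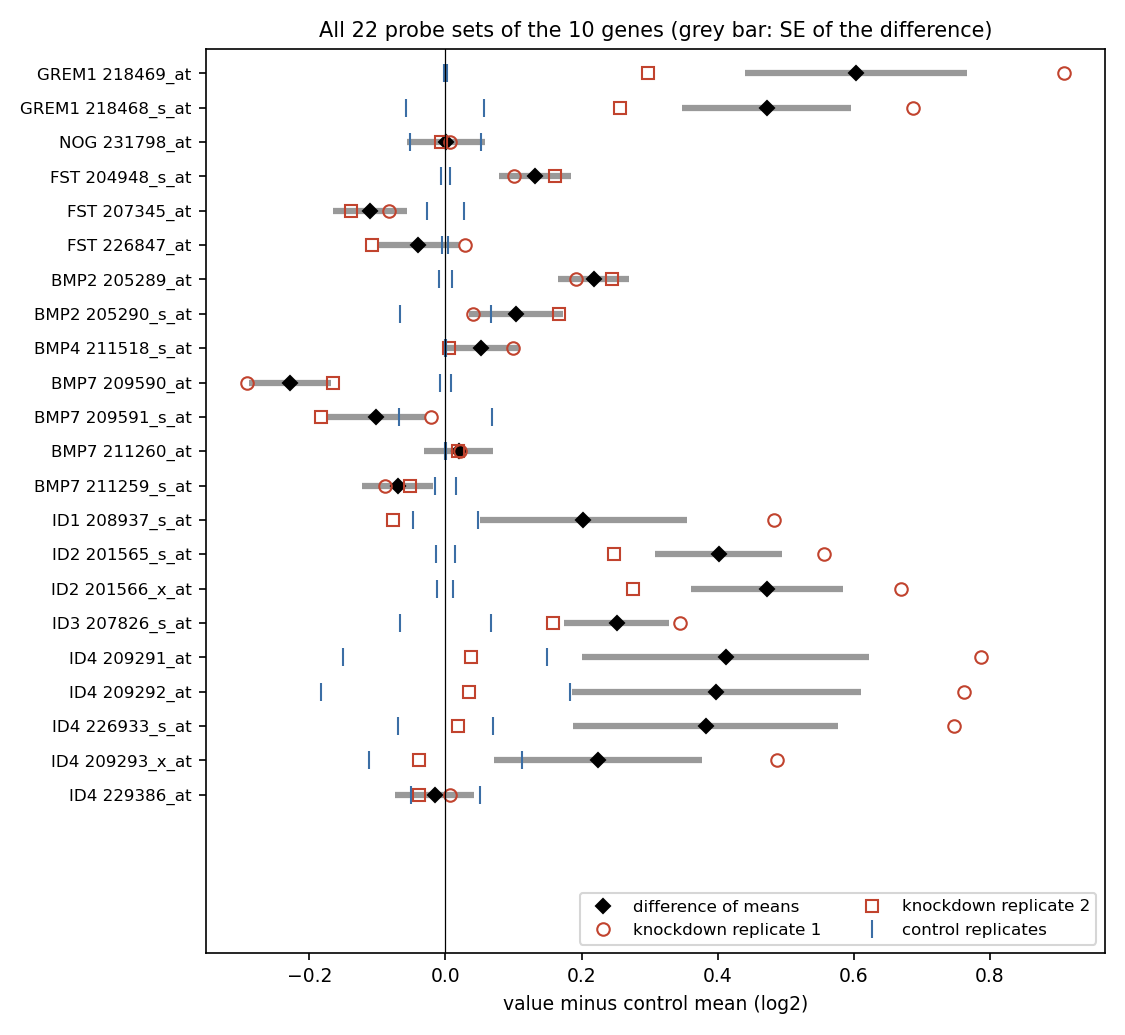
Difference from the control mean (log2, horizontal axis) at each of the 22 probe sets (vertical axis): open circles and squares are knockdown replicates 1 and 2, blue ticks the 2 control arrays, black diamonds the difference of means and grey bars its SE. Probe sets of GREM1 and ID2 have both knockdown arrays right of the controls, 4 of 5 ID4 probe sets have the first knockdown array alone to the right, and the FST probe sets lie on both sides.

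Each of the 4 ID genes had a higher mean in knockdown samples. In ID2 and ID3 both knockdown arrays lay above both controls, whereas in ID1 and ID4 the first alone did. ID2, an inhibitor of E proteins that also binds the retinoblastoma protein, gave 11.71 and 11.40 on the knockdown arrays, against 11.17 and 11.14 on the control arrays (201565_s_at). Both knockdown arrays were above both controls, with means of 11.56 ± 0.22 in knockdown and 11.16 ± 0.020 in control samples (SD, n = 2 each) and a difference of 0.40 ± 0.093 (SE), or 1.32-fold. The second ID2 probe set (201566_x_at, whose probes can bind other transcripts) gave 10.13 and 9.73 in the knockdown samples, against 9.44 and 9.47 in the control samples, a difference of 0.47 ± 0.11 (SE). ID3, a close relative induced early by BMP, had 9.72 and 9.53 on the knockdown arrays, against 9.31 and 9.44 on the control arrays. Its groups did not overlap, but the nearest arrays were closer to each other than the replicates of either group, and the difference was 0.25 ± 0.077 (SE).

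ID1 and ID4 were high on the first knockdown array only. ID1, the ID gene most used as a readout of BMP activity, gave 10.87 and 10.31 on the knockdown arrays, against 10.34 and 10.43 on the control arrays. The second knockdown array was the lowest of the 4, 0.077 below the control mean, while the first was 0.48 above it. The mean difference was 0.20 ± 0.15 (SE), and it turned to -0.077 without knockdown replicate 1. ID4, expressed in neural precursors, gave 10.59 and 9.84 on the knockdown arrays, against 9.95 and 9.65 on the control arrays (209291_at). The second knockdown array lay between the controls. The difference was 0.41 ± 0.21 (SE), 0.037 without knockdown replicate 1 and 0.79 without knockdown replicate 2.

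The ID4 probe sets repeated this shape. On the first knockdown array, 209291_at, 209292_at, 226933_s_at and 209293_x_at were above the control mean by 0.79, 0.76, 0.75 and 0.49. On the second they differed from it by 0.037, 0.035, 0.018 and -0.039. The fifth, 229386_at, was dim and differed by -0.016 ± 0.058 (SE) between the groups. These probe sets read the same RNA samples and are not further replicates. ID4 also varied between the controls, by 0.30 at 209291_at, a gap that 0.417% of all probe sets reached or passed, and replicate 1 was the higher one in both groups. The gap between the knockdown arrays was 0.75 for ID4, 0.56 for ID1, 0.31 for ID2 and 0.19 for ID3, and as large a gap was found at 0.033%, 0.0879%, 0.943% and 7.37% of all probe sets.

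Several markers of mesenchymal neuroblastoma cells and fibroblasts also stood highest on the first knockdown array. Of 18 such genes, 15 had a higher mean in knockdown samples, where 44.4% of all genes and 23 of the 32 tissue-restricted genes did. The 15 include COL1A2, PRRX1 and POSTN, whose values were all under 6.87. On the first knockdown array 16 of the 18 were above the control mean (45.3% of all genes were), by up to 0.93 (DCN). At their brightest probe sets PDGFRA, FN1 and TWIST1 were above it by 0.020, 0.037 and 0.053 only, and PDGFRB and TAGLN were at -0.031 and -0.011. The PDGFRA probe sets differed, as the dimmer 215305_at was above its control mean by 0.57 and 0.20 on the knockdown arrays. There it gave 8.66 and 8.29, against 8.15 and 8.03 on the control arrays. The median of the list, relative to the control mean, was 0.17 and 0.047 in the knockdown samples, against 0.018 and -0.018 in the control samples. Summed on the linear scale, their signal was 21750 and 19291 units in the knockdown samples, against 19535 and 18518 on the control arrays. DCN, the matrix proteoglycan decorin, had 10.06 and 9.19 in the knockdown samples, against 9.17 and 9.09 in the control samples. COL3A1, a fibrillar collagen, had 9.46 and 9.02 in the knockdown samples, against 8.82 and 8.77 in the control samples. Of the 18, 0 passed the threshold (limma), with 2 higher and 0 lower at an unadjusted p under 0.05, where 2.39% and 5.57% of all genes were. RMA values have no zero, so none of the markers could be at 0. The part of these cells or of this cell state in the GREM1 and ID values was not tested, and in bulk RNA a change in the share of such cells and a change in RNA per cell cannot be told apart.

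Noradrenergic markers stood the other way, with 2 of 11 higher, where 44.4% of all genes were. List medians were -0.054 and -0.043 in the knockdown samples, against -0.0021 and 0.0021 in the control samples. Their summed signal was 39305 and 39753 units in the knockdown samples, against 41527 and 41953 in the control samples. Of the 11, 0 passed the threshold (limma), with 0 higher and 3 lower (DBH, CHGA and CHGB) at an unadjusted p under 0.05. For Schwann cell and melanocyte markers 7 of 8 were higher, as were 23 of the 32 tissue-restricted genes. The marker medians were 0.027 and 0.053 in the knockdown samples, against -0.012 and 0.012 in the control samples. Those of the tissue-restricted genes were 0.010 and 0.027 in the knockdown samples, against -0.011 and 0.011 in the control samples. The summed signal of the markers was 873 and 879 units in the knockdown samples, against 860 and 845 on the control arrays. S100B, ERBB3 and FOXD3 were under 6.87 on all arrays. MITF of the same list was above it, at 7.93 and 7.86 in the knockdown samples, against 7.92 and 7.76 in the control samples. SOX10, the defining factor of that lineage, gave 6.70 and 6.67 in the knockdown samples, against 6.65 and 6.72 in the control samples, under the 6.87 reached by the tissue-restricted genes.

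**Figure D3:**
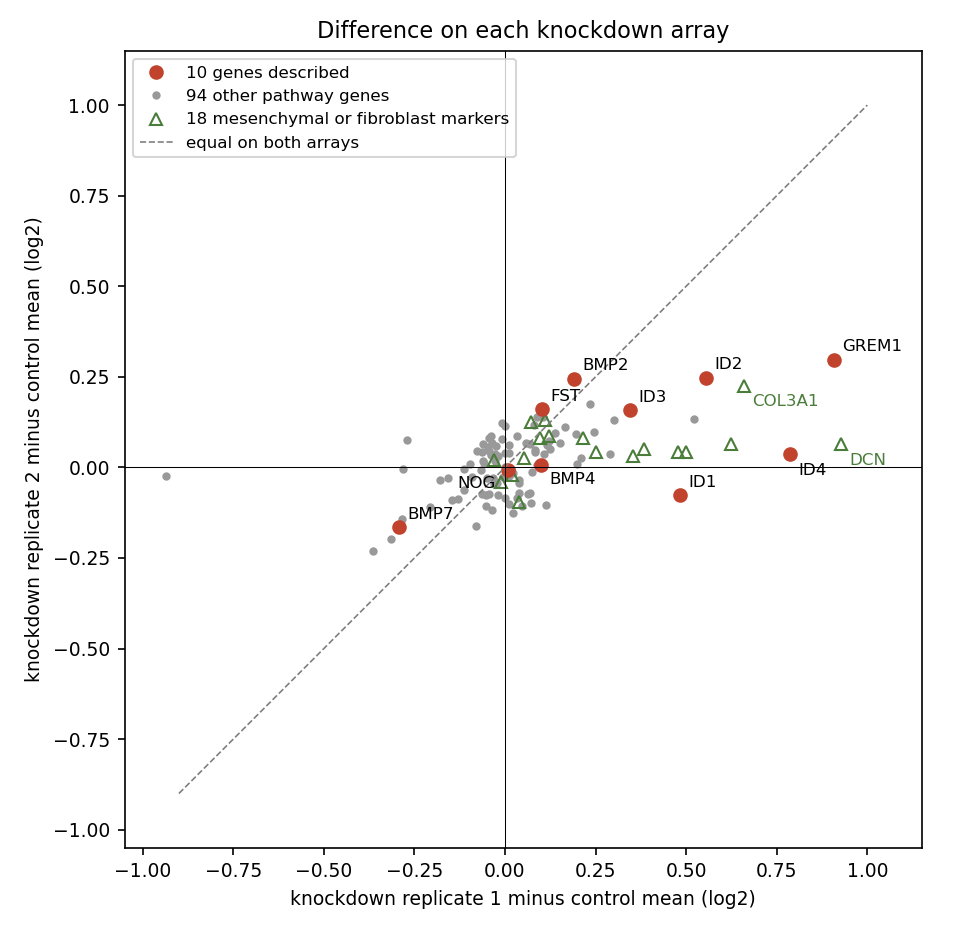
Value on knockdown replicate 1 (horizontal) and knockdown replicate 2 (vertical), each minus the control mean (log2), for the brightest probe set of the 10 genes (red), 94 other pathway genes (grey) and 18 mesenchymal or fibroblast markers (green triangles). GREM1, ID1, ID2, ID4, DCN and COL3A1 lie far right of the dashed line of equality, BMP2 lies just above it, and the points share the same control arrays.

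The genes whose 4-array pattern was closest to GREM1, by Euclidean distance between values minus the control mean over 19775 genes, were PTN (0.18), DCN (0.24), COL3A1 (0.26), DKK2 (0.27) and GPR22 (0.28). PTN, the heparin-binding growth factor pleiotrophin, had 12.35 and 11.75 on the knockdown arrays, against 11.60 and 11.54 on the control arrays. DKK2, a secreted Wnt modulator, had 9.64 and 9.30 in the knockdown samples, against 8.85 and 9.05 in the control samples. The closest to ID1 were CDO1 (0.095), TENT5C (0.10), KITLG (0.12), CLU (0.13) and CD59 (0.14). CDO1, cysteine dioxygenase, had 9.80 and 9.36 on the knockdown arrays, against 9.33 and 9.39 on the control arrays. GREM1 and ID1 were chosen with these same values known, so the neighbours are a description. Whether they share a cause was not tested.

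Over the rest of the pathway the median difference was close to 0. It was -0.0014 over 94 genes, beside -0.0094 over all genes. Of 99 further genes in 6 lists, 94 had a probe set of their own, and 46 of these had a higher mean in knockdown samples, where 44.4% of all genes did. Of the 94, 0 passed an adjusted p of 0.05 (limma), with 6 higher and 5 lower at an unadjusted p under 0.05, where 2.39% and 5.57% of all genes were. Both knockdown arrays lay above both controls in 21 (14.3% of all genes) and below them in 20 (24.2% of all genes). Without knockdown replicate 2, when the lone knockdown array is assumed to vary like the controls, 9 of the 94 passed, where 2.14% of all genes did.

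**Figure D4:**
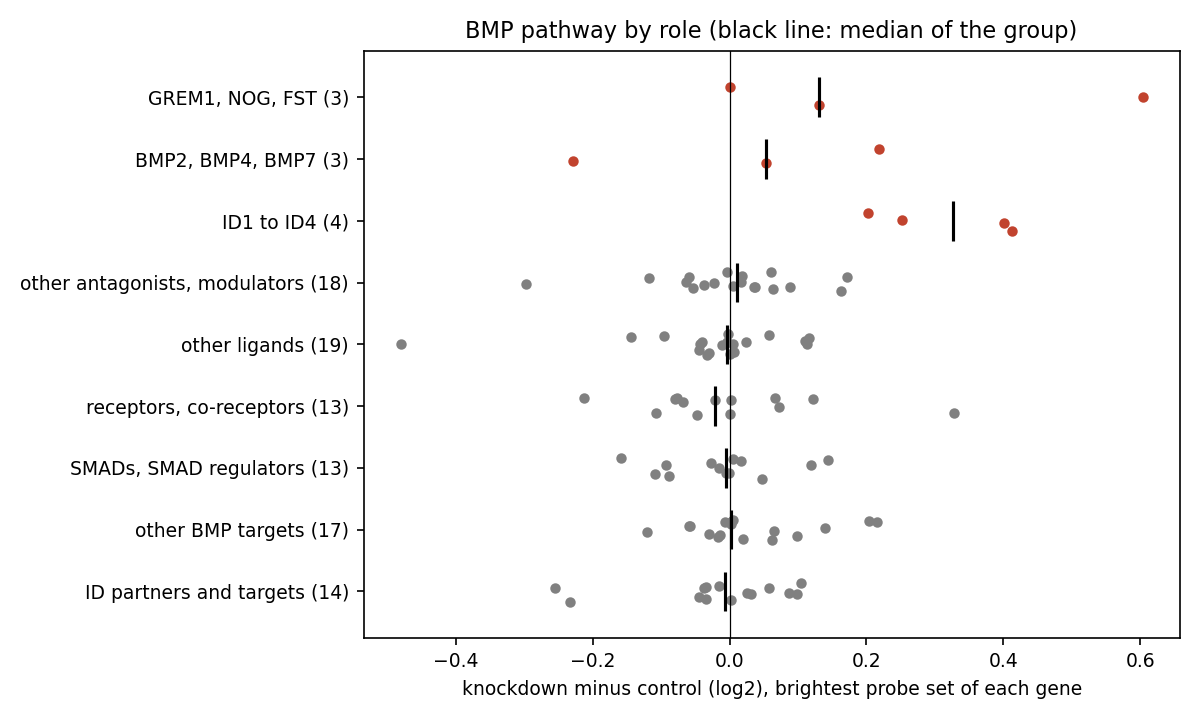
Knockdown minus control (log2, horizontal axis) for the brightest probe set of each gene, by role in the pathway (rows, with the number of genes); red points are the 10 genes described, grey points the other pathway genes and black lines the medians. The 4 ID genes, chosen with this contrast known, have a median of 0.33, and the 6 lists below them have medians between -0.022 and 0.011.

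Other extracellular modulators had a median difference of 0.011 over 18 genes. DAND5, an antagonist of the same family as gremlin, gave 9.08 and 9.21 on the knockdown arrays, against 9.39 and 9.49 on the control arrays, a difference of -0.30 ± 0.065 (SE; limma, adjusted p = 0.58). Its direction was thus opposite to that of GREM1, and it had the smallest unadjusted p of the 94 genes at their brightest probe sets. TWSG1, twisted gastrulation, which binds BMPs together with chordin, was at 0.17 (limma, adjusted p = 0.61), and the procollagen protease BMP1 at -0.12 (0.64). Only 2 of the 6 other BMP1 probe sets were also lower.

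Among 19 other ligands the median difference was -0.0031. BMP10 (0.12), GDF7 (0.11) and GDF11 (0.11), a heart, a neural tube and an axial patterning ligand, had the smallest p, with adjusted values between 0.64 and 0.68 (limma). The mean signal of BMP10 was under 6.87, in the range of the tissue-restricted genes. Only 2 of the 4 other GDF11 probe sets were also higher. INHBE, an inhibin subunit gene named after its values were seen, had the lowest difference, -0.48 ± 0.30 (SE; limma, adjusted p = 0.73). It gave 7.74 and 8.65 in the knockdown samples, against 8.31 and 9.04 in the control samples, so that replicates lay further apart than the group means.

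Receptors and co-receptors had a median of -0.022 over 13 genes. BAMBI, a decoy receptor that BMP signalling itself induces, gave 9.40 and 9.01 on the knockdown arrays, against 8.91 and 8.84 on the control arrays. Its difference was 0.33 ± 0.11 (SE; limma, adjusted p = 0.61), and the first knockdown array was the high one, as for GREM1 and ID4. RGMB, a BMP co-receptor, was at -0.21 ± 0.062 (SE; limma, adjusted p = 0.60), with 1 of its other 3 probe sets at 0.0064. The endothelial receptor ACVRL1, whose signal was in the range of the tissue-restricted genes, was at 0.12 (0.66). SMADs and their regulators had a median of -0.0047 over 13 genes. The repressor SKIL was at -0.16, the inhibitory SMAD6, a target of the pathway, at 0.14 and the ubiquitin ligase SMURF1 at -0.11, with adjusted p of 0.61, 0.63 and 0.69 (limma). The other probe sets of SKIL, SMAD6 and SMURF1 disagreed in sign.

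Other BMP targets had a median of 0.0028 over 17 genes. The 4 ID genes had 0.33, with medians of 0.52 on the first knockdown array and 0.098 on the second. They were chosen with this contrast known, so nothing is read from setting the 2 medians side by side. HES1, HEY1 and MSX2, transcription factors that BMP induces in several tissues, had the smallest p and were each above control. HES1 gave 6.84 and 6.78 on the knockdown arrays, against 6.56 and 6.65 on the control arrays, a difference of 0.20 ± 0.057 (SE; limma, adjusted p = 0.60). Its other 2 probe sets were at 0.20 and 0.072. HEY1 differed by 0.21 ± 0.074 (SE; limma, adjusted p = 0.61) and MSX2 by 0.14 ± 0.053 (SE; limma, adjusted p = 0.62), and all other probe sets of both were above control. The mean signals of HES1 and MSX2 were under 6.87, in the range of the tissue-restricted genes. HES1 and HEY1 are also targets of Notch signalling.

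Partners and targets of ID proteins had a median of -0.0073 over 14 genes. The neurogenic factor NEUROG2 gave 6.35 and 6.47 on the knockdown arrays, against 6.60 and 6.72 on the control arrays, a difference of -0.26 ± 0.066 (SE; limma, adjusted p = 0.60), in the range of the tissue-restricted genes. HAND1, a factor of the sympathetic lineage, gave 8.45 and 8.58 on the knockdown arrays, against 8.78 and 8.72 on the control arrays, a difference of -0.23 ± 0.062 (SE; limma, adjusted p = 0.60). OLIG1, a glial lineage factor also in that range, was at 0.098 (0.71). Both NEUROG2 and HAND1 had both knockdown arrays below both controls. TCF4, of the same list, was lower at each of its probe sets. Its difference was -0.034 at the brightest (212386_at) and -0.26 at 228837_at (limma, adjusted p = 0.58).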

How the data were processed

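Total RNA (100 ng) from 2 TSPAN8 knockdown and 2 transfection control samples was profiled, 1 oligonucleotide array each. The deposited log2 values, 1 per probe set and array, were made by the authors with RMA and R 3.0.1, per the submitters' processing notes, which give no settings. Values ran from 5.30 to 14.6. The number of arrays limits the precision, and no scanner files, detection calls or scan dates were used here. Gene names came from the platform annotation. Of 54613 probe sets (62 AFFX controls left out) 41091 had 1 gene, 1801 several and 11721 none, and 41037 matched a current RefSeq gene.

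Differences between knockdown and control were fitted with limma 3.58.1 (R 4.3.3, lmFit and eBayes, two-sided) over all 54613 probe sets with Benjamini-Hochberg adjustment and a threshold of 0.05, without covariates. A gene was represented by its brightest probe set. The script was tested on simulated data. The members, gene lists and tests were chosen with earlier results of these data known. Besides every probe set of the 10 genes and TSPAN8, the text names the 3 genes with the smallest p in each pathway list, the 5 genes nearest to GREM1 and to ID1, and DBH, DCN, COL3A1 and SOX10. CHGA, CHGB, PDGFRA, PDGFRB, FN1, TWIST1, TAGLN, COL1A2, PRRX1, POSTN, S100B, ERBB3, FOXD3, MITF and TCF4 were named after their values were seen. The 3 promoter motifs were chosen for their textbook roles, after other patterns in these promoters had also been looked at. Genes of the lists without a probe set of their own were not analysed here. Alternatives were a filter on dim probe sets, 2 other normalizations, a trended robust variance, array weights, a replicate block, removal of probe sets that bind several transcripts, a mean per gene, and each array left out. Plots were drawn with matplotlib 3.10.9 in Python 3.11.15.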

Additional observations from a re-analysis of the deposited data

How the results depend on the processing

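With 1 array left out, the number of probe sets past the threshold ran from 1 to 1026, with 1026 (1.88%) without knockdown replicate 2 and 25 without knockdown replicate 1. Among the 22 probe sets of the 10 genes, which were chosen on this contrast, it ran from 0 to 11, and among the 94 other pathway genes from 0 to 9, both highest without knockdown replicate 2. A lone array in such a fit takes its spread from the other group, and the cause was not tested. GREM1 ranged from 0.30 to 0.91 with an array left out and from 0.54 to 0.60 under the other settings. The mean over probe sets moved FST to -0.0067, BMP2 to 0.16 and BMP7 to -0.095; NOG, close to 0, changed sign under 2 settings. With the replicate block 0 probe sets passed, in a fit with fewer residual degrees of freedom: TSPAN8 kept its difference of -1.27 but had an adjusted p of 0.16 (limma). No label pairs equal replicate numbers, and their deviations correlated at 0.051. The count of 16 positive probe sets, added after seeing the data, was 13 without knockdown replicate 1 and 18 without knockdown replicate 2. Without probe sets that bind several transcripts, 6 of those left were positive, and the rest, of FST, BMP7 and ID4, were negative. This filter took out every probe set of ID1, ID2, ID3 and BMP4. At NOG, FST and BMP4, and at HES1, MSX2, BMP10, ACVRL1, OLIG1 and NEUROG2, signal in the range of the tissue-restricted genes limits what a difference can show. The same limit holds for GREM1, whose control values were in that range at both probe sets.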
